A study of Mus musculus with 6 samples.

Results

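Adhesion tissue that had formed in the pericardial cavity was compared with the heart beneath it, 3 days after talc. The comparison used 2 of the 6 libraries of the study, 1 of adhesion tissue and 1 of whole heart, and covered the 10500 of 23420 genes that had 30 or more reads over the 2 libraries. Both came from male C57BL/6 mice of 8 weeks, which received 300 µL of a saline talc solution (2.5 mg/g) through the diaphragm. Whole heart at days 0 and 7 and adhesion at days 1 and 7 made up the other libraries, again 1 each. For the first adhesion library the title and the stage label give day 1 and the source label day 0, and day 1 is used here. Whether the day 3 heart and adhesion tissue came from the same mouse, and whether mice were pooled, is not stated in the sources used here. With 1 library a side there is no replicate spread, so no test was made. Each ratio is given with its exact 95% binomial interval, which covers counting error only.

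Talc is a mineral powder that irritates serous linings, and pericardial adhesions are the bands of fibrin, cells and collagen that then join the heart surface to the pericardium. Such repair tissue is built by leukocytes that clear debris and release cytokines, by fibroblasts that lay down collagen, and by growing vessels. Whole heart, in contrast, is mostly cardiac muscle by RNA, with a metabolism set to burn fatty acids in mitochondria. A level below is in CPM, the reads of a gene for every 1000000 reads of its library in genes. In bulk tissue, fewer cells of a type and less RNA per cell cannot be told apart.

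The heart library held 1810564 reads in genes and the adhesion library 1615922, in a range of 1615922 to 1844565 over all 6. Heart muscle markers gave the labels a check. The 24 sarcomere genes, which encode the contractile apparatus, took 13.3% of the heart reads and 0.0785% of the adhesion reads. Markers of neighbouring tissues were near 0 or low in the day 3 adhesion library: 10 lung and airway genes summed to 14.9 CPM, 8 thymus genes to 36.5 and 16 skeletal muscle genes to 16.7. The same lists summed to 552, 275 and 8446 in the adhesion library of day 1, and to 689.6, 23.9 and 2823 in that of day 7. Of the 3 adhesion libraries, that of day 3 thus held the fewest lung and skeletal muscle reads. The precursor of ribosomal RNA, Rn45s, took 4.02% of the heart reads and 11.4% of the adhesion reads.

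Promoter sequences show the genes that the comparison turns on beside the short motifs of well-known muscle and leukocyte factors. The RefSeq promoter (GRCm38.p6, from 250 bases before to 50 bases after the start) was matched by symbol for 7884 of the 10500 genes. For 6880 of these the start lay within 50 bases of the gene start in the deposited data. The MEF2 box, bound by the MEF2 factors of muscle, was present in 2.03% (18 of 885) of the promoters of genes over 3-fold lower in adhesion tissue. It was present in 0.116% (1 of 864) of those over 3-fold higher and 0.482% (38 of 7884) of all, so it was rare in each. The CArG box of serum response factor was present in 2.26%, 1.62% and 1.43% in the same order. PU.1, a factor of myeloid and B cells, was searched as GAGGAAGT, which was present in 1.81% of the lower, 8.33% of the higher and 3.32% of all promoters. AP-1, the Fos and Jun dimer, was searched as TGANTCA and was found in 5.65%, 7.99% and 4.83%. The NF-kappaB motif was found in 10.5%, 12.5% and 10.6%. Both strands were read, and matches of different motifs overlapped in 6 promoters. A match is a description of letters, not of a bound factor. The 250 bases before the start are printed below for 3 genes low in adhesion tissue and 3 high in it, chosen after their values were seen. Only 1 chosen motif for each gene is in capitals: the MEF2 box in Ttn and Xirp2, the CArG box in Actc1, PU.1 in Spp1, and AP-1 in Serpinb2 and Mmp13. Matches of other motifs are left in lower case, such as the AP-1 letters TGACTCA in Xirp2 and an NF-kappaB match in Actc1. The capitals therefore show no split of motifs between low and high genes.
Ttn, chr2:76982548-76982797, minus strand: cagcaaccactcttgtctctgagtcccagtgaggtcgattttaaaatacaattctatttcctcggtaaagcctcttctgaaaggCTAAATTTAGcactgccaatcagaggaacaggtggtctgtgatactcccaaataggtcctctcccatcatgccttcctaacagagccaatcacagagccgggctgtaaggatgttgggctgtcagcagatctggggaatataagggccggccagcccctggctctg
Xirp2, chr2:67445752-67446001, plus strand: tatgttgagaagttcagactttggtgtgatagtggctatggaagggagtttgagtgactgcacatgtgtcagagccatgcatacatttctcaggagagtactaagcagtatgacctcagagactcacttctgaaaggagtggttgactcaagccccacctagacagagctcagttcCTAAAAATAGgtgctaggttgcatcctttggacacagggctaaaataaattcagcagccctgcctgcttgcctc
Actc1, chr2:114052876-114053125, minus strand: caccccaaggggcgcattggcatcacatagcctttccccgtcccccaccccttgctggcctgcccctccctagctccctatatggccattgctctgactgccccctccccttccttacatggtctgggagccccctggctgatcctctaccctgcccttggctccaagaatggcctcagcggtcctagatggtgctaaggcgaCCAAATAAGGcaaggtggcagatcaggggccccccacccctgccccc
Spp1, chr5:104434861-104435110, plus strand: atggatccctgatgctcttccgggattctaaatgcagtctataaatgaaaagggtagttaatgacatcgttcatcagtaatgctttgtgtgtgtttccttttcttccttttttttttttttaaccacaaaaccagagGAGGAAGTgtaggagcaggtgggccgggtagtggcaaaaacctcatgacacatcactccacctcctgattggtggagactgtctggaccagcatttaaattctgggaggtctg
Serpinb2, chr1:107511173-107511422, plus strand: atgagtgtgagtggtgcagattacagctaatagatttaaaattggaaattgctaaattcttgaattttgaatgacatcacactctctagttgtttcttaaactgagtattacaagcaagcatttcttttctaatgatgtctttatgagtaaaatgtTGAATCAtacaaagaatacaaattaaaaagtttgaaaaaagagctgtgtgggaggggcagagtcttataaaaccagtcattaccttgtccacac
Mmp13, chr9:7272264-7272513, plus strand: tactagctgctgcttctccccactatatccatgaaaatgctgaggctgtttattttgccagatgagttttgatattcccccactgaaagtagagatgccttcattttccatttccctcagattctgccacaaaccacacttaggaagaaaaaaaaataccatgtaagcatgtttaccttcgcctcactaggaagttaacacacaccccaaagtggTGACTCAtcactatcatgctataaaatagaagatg
The capitals begin 166 bases before the start in Ttn, 74 in Xirp2, 47 in Actc1, 113 in Spp1, 94 in Serpinb2 and 35 in Mmp13.

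Most genes had similar levels in both tissues. Of the 10500 genes, 59.8% lay within 2-fold and 77.4% within 3-fold, and the median log2 ratio of adhesion tissue to heart was 0.24. More than 3-fold higher in adhesion tissue were 1191 genes (11.3%), and more than 3-fold lower 1180 (11.2%). The interval lay wholly past 3-fold for 591 (5.63%) and 768 (7.31%). The extremes were not symmetric. Over 10-fold lower were 428 genes and over 10-fold higher 149, and 90 genes were over 100-fold lower while 0 were over 100-fold higher. In heart 8 of the genes had 0 reads, and in adhesion tissue 59.

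The balance of the calls depended on the scale. Of all calls, 50.2% were higher in adhesion tissue with all reads as the total, and 55.3% (1361 higher, 1101 lower) with Rn45s left out of the totals. With Rn45s and 164 muscle genes left out, the share was 39.2% (900 and 1395). It was 38.4% with edgeR TMM (889 and 1426), 40.1% with DESeq2 size factors (920 and 1376) and 39.2% with the median set to 0 (899 and 1397). The last 4 lower every log2 ratio by 0.23 to 0.26, so calls with a ratio close to 3 depend on them. The counts of gene lists below stand beside 11.3% higher and 11.2% lower of all genes. List counts with these 4 scalings stand beside 889 to 920 higher and 1376 to 1426 lower among all 10500 genes.

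**Figure D1:**
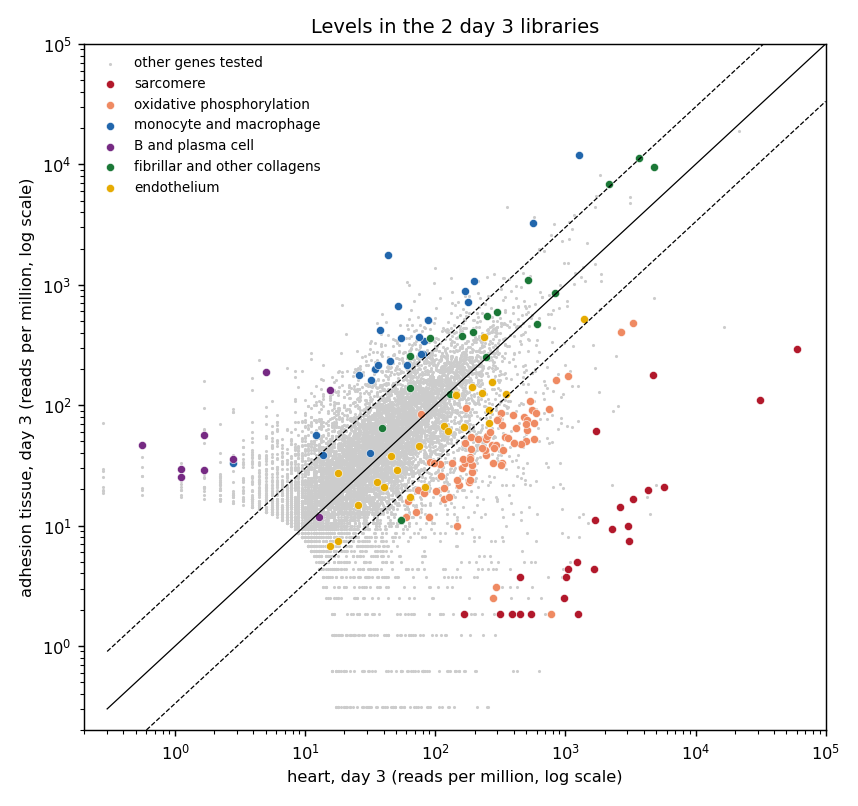
Level of each gene in the heart (horizontal axis) and the adhesion library (vertical axis) at day 3, in CPM on log axes, with 6 gene lists in colour. The solid line marks equal levels and the dashed lines 3-fold; genes with 0 reads are drawn at 0.5 read. Sarcomere genes lie far below the lines, and most monocyte and macrophage and B and plasma cell genes above them.

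Heart muscle genes made the largest differences. All 24 sarcomere genes were over 3-fold lower in adhesion tissue, beside 11.2% of all genes, with a median log2 ratio of -7.91 against 0.24. Myh6, the alpha myosin heavy chain of adult ventricle (chr14:54941921-54966607, mm10, minus strand), had 56512 reads in heart and 177 in adhesion tissue. Its levels were 38266, 31212 and 37357 CPM in the hearts of days 0, 3 and 7, and 2868, 109.5 and 1925 in the adhesion libraries of days 1, 3 and 7. All 3 heart libraries thus lay above all 3 adhesion libraries, and day 3 was the lowest adhesion library. At day 3 the level was 285-fold lower in adhesion tissue (interval 246 to 332).

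The other sarcomere genes lay close together. As a percent of the heart level, the adhesion level of the 24 genes had a median of 0.416% and quartiles of 0.349% and 0.554%. The lowest were Xirp2, which binds actin at the intercalated disc, at 0.149% (interval 0.0308 to 0.437), the ventricular light chain Myl2 at 0.242% and the Z-disc gene Ldb3 at 0.255%. The giant spring protein Ttn (108842 and 472 reads) was at 0.486% (0.443 to 0.532), the cardiac actin Actc1 at 0.368%, troponin T Tnnt2 at 0.461% and alpha-actinin Actn2 at 0.263%. Nebl, at 1.12% on 3 adhesion reads, had an interval (0.230 to 3.31) that held the median. Set apart from these were tropomyosin Tpm1 at 3.75% (3.32 to 4.22) and the intermediate filament desmin (Des) at 3.55% (2.87 to 4.33). Tpm1 and Des are also made by smooth muscle, and their intervals did not overlap those of the median genes.

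Genes of calcium handling, natriuretic peptides and cardiac transcription followed. Of 16 calcium handling and conduction genes, 15 were over 3-fold lower and 0 higher, with a median log2 ratio of -6.05 and Gja5 the exception (32 and 11 reads). Pln, which restrains the calcium pump of the sarcoplasmic reticulum, had 4570.3, 4273 and 3475 CPM in the heart series and 77.1, 17.3 and 147 in the adhesion series. It was 247-fold lower at day 3 (170.5 to 371). The ryanodine receptor Ryr2 was 229.6-fold lower (165 to 329.9), Casq2 264-fold (103 to 971), and triadin (Trdn), with 452 reads and 0, at least 134-fold. The pump itself, Atp2a2, was 37.3-fold lower (34.6 to 40.2) and kept 715 reads in adhesion tissue. This gene is expressed outside muscle as well.

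All 6 natriuretic peptide and stress genes were over 3-fold lower. Nppa, the atrial natriuretic peptide, had 781, 421 and 927 CPM in the heart series and 624, 3.09 and 198 in the adhesion series. The adhesion library of day 1 lay inside the heart range and that of day 3 was 136-fold lower (58.0 to 420.1). Ankrd1 was 109.5-fold lower, myoglobin (Mb) 359-fold lower (232 to 587) and Nppb, with 125 reads and 0, at least 37.2-fold lower. Among 15 cardiac transcription factors 9 were over 3-fold lower and 0 higher. Among the 9 were Tbx20 at 413 and 3 reads, Gata4 at 245 and 5, Myocd at 261 and 1 and Nkx2-5 at 74 and 0. The 6 within 3-fold were Gata6, Mef2a, Mef2c, Mef2d, Srf and Esrra, at ratios of 0.757, 0.642, 0.678, 0.538, 0.714 and 0.348, the last next to the threshold. The MEF2 factors and Srf, whose motifs are printed above, therefore differed by less than 3-fold.

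Mitochondrial energy genes were lower by a smaller median amount than sarcomere genes. Of 76 oxidative phosphorylation genes, which build the respiratory chain, 72 were over 3-fold lower and 0 higher, with a median log2 ratio of -2.58. The list summed to 27586 CPM in heart and 4413 in adhesion tissue. The 4 within 3-fold were Ndufc2, Ndufs8, Atp5g2 and Cox8a, the only one above 1, at 1.08 (0.848 to 1.38). 3 subunits found mostly in striated muscle stood apart from the rest of the chain: Cox6a2 was 418-fold lower (143 to 2028), Cox7a1 112-fold (43.6 to 414) and Cox8b 94.6-fold (40.3 to 293).

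Fatty acid oxidation genes were over 3-fold lower for 22 of 24 and higher for 0, with a median log2 ratio of -3.08. Fabp3, the fatty acid carrier of heart, was 141-fold lower (87.7 to 242). Pdk4, which shuts off pyruvate oxidation, was 40.6-fold lower (25.5 to 68.8), and Hadhb of the trifunctional protein 17.0-fold (14.1 to 20.6). Cd36, a fatty acid receptor of muscle, endothelium and macrophages, differed by 2.72-fold (2.51 to 2.94). Pdk4 was not lower at every day: its levels were 359, 452 and 404 CPM in the heart series and 1118, 11.1 and 49.3 in the adhesion series, where the library of day 1 was above all 3 hearts.

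In a glycolysis and hypoxia list without the muscle forms, more genes were higher in adhesion tissue than lower. Of 24 genes, 9 were over 3-fold higher in adhesion tissue, beside 11.3% of all genes, and 0 lower, with a median log2 ratio of 1.07. The interval lay above 1 for 18 and below 1 for 5, and the summed level was 1.28-fold higher. Muscle forms of the same pathway were lower, with Pfkm at 38.2-fold (27.2 to 55.3), Eno3 at 49.3-fold (31.7 to 81.0) and Pgam2 at 58.1-fold (28.0 to 145). The glucose transporter Slc2a1 had 17.5, 34.2 and 29.7 CPM in the heart series and 278, 327 and 106 in the adhesion series, so all adhesion libraries were above all heart libraries. It was 9.56-fold higher at day 3 (7.34 to 12.6). The lactate exporter Slc16a3 was 11.3-fold higher (8.33 to 15.8), the endoplasmic reticulum oxidase Ero1l 8.93-fold (7.05 to 11.5), Pgam1 5.39-fold (4.55 to 6.40) and Ldha 1.89-fold (1.73 to 2.07). Of 14 pentose phosphate and iron genes 7 were over 3-fold higher and 0 lower. Haptoglobin (Hp), which captures free haemoglobin, was 14.1-fold higher (12.1 to 16.5), heme oxygenase Hmox1 7.35-fold (6.12 to 8.89) and the ferritin light chain Ftl1 6.33-fold (5.92 to 6.77). G6pdx, the entry enzyme of the pentose phosphate pathway, was 5.88-fold higher.

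**Figure D2:**
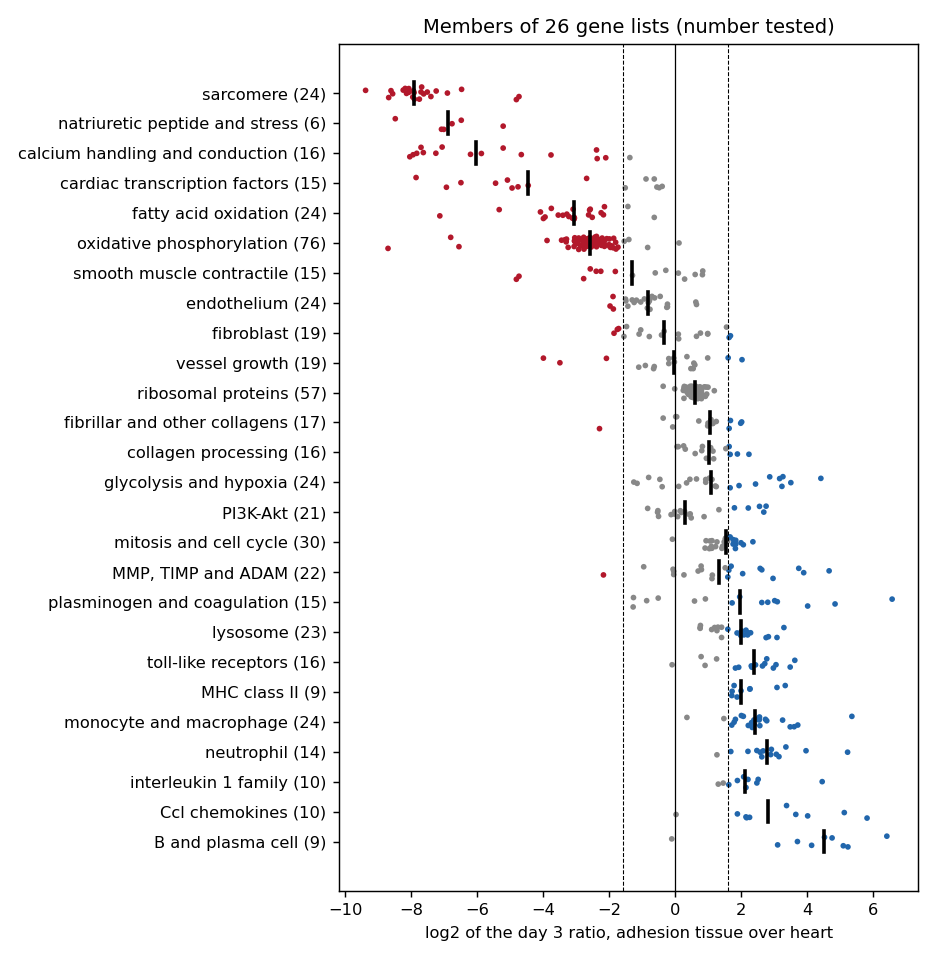
Log2 ratio of adhesion tissue to heart at day 3 for each tested member (points) of 26 gene lists, with the median of each list as a bar and 3-fold as dashed lines; blue points are over 3-fold higher, red points over 3-fold lower. Medians run from -7.91 for sarcomere genes to 4.52 for B and plasma cell genes.

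Many heart proteins exist as a muscle form and a form used by other cells, encoded by separate genes. The share of the muscle form in a pair is taken within each library and without regard to its total. Calls past 3-fold do depend on the totals. Of 34 such pairs, 32 had 30 reads for both genes. The muscle form was over 3-fold lower in adhesion tissue in 30 of the 32, the other form over 3-fold higher in 14 and lower in 1, and both held in 12. Among the 14, Fabp5, Tpm4, Flna, Vim, Adss and Pdk3 had log2 ratios of only 1.60 to 1.65. With the scalings that lower the ratios they were within 3-fold. By reads per kb of exon, the muscle form was the larger in 29 pairs in heart and in 2 in adhesion tissue, and its median share was 92.4% in heart and 6.51% in adhesion tissue. The pairs were chosen because their forms differ between tissues, so the direction is no finding and the size is given as a description.

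The pairs covered metabolism, translation and the cytoskeleton. The muscle glucose transporter Slc2a4 made 89.8% of its pair with Slc2a1 in heart and 2.03% in adhesion tissue. Glycogen phosphorylase went from 98.5% muscle form (Pygm against Pygl) to 5.05%, and cytochrome oxidase subunit 6A from 91.9% (Cox6a2 against Cox6a1) to 1.59%. The elongation factor Eef1a2 made 36.3% and 0.0971% of its pair with Eef1a1, and Rpl3l, a ribosomal protein of striated muscle, 37% and 0.106% against Rpl3. Myosin went from 98.2% Myh6 over non-muscle Myh9 to 6.56%, and the intermediate filament from 70.2% desmin (Des over Vim) to 2.59%. The exceptions kept the muscle form as the larger: Atp2a2 over Atp2a3 (99.8% and 80.0%) and Adssl1 over Adss (80.6% and 58.8%). The one counterpart that was lower was Cox7a2, at 4.91-fold (3.68 to 6.65).

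**Figure D3:**
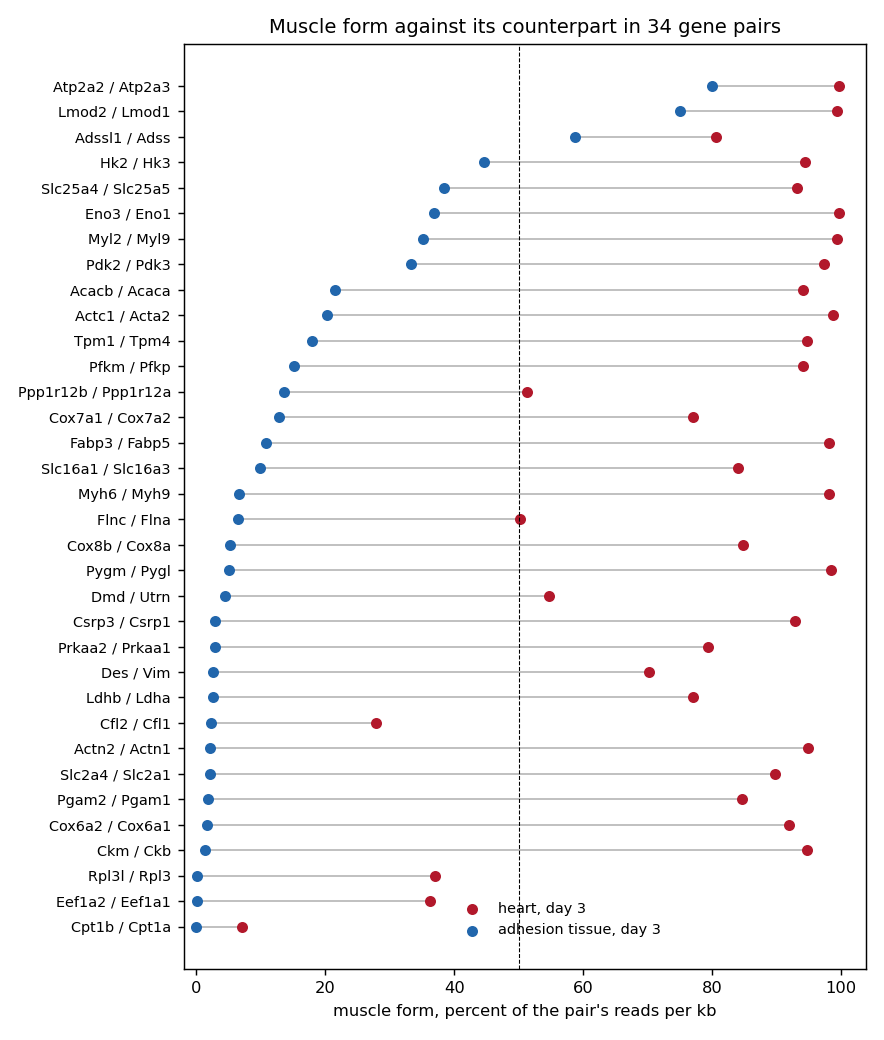
Share of the muscle form in 34 gene pairs, in percent of the reads per kb of both genes, in heart (red) and adhesion tissue (blue) at day 3; the dashed line marks 50%. In every pair the blue point lies left of the red point, with medians of 6.51% and 92.4% over the 32 pairs with 30 reads for both genes.

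Most genes of several leukocyte lists were high in adhesion tissue. Of 24 monocyte and macrophage genes, 22 were over 3-fold higher and 0 lower, with a median log2 ratio of 2.42 and a summed level of 3256 CPM in heart and 24332 in adhesion tissue. Cx3cr1, the fractalkine receptor (57 and 65 reads), and Ms4a7 (25 and 62) were the others. Of the summed level, fibronectin (Fn1), which fibroblasts make as well, gave 1263 CPM in heart and 12011 in adhesion tissue. The sum is therefore no measure of macrophages alone. Arg1, which turns arginine into ornithine and urea (chr10:24915207-24927470, minus strand), had 79 reads in heart and 2873 in adhesion tissue. Its levels were 1.17, 43.6 and 9.90 CPM in the heart series and 855, 1778 and 71.0 in the adhesion series. All adhesion libraries lay above all heart libraries, and day 3 was the highest of each tissue. The ratio at day 3 was 40.7 (32.6 to 51.6).

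The myeloid cell genes given next had smaller ratios than Arg1, and Fn1 and Spp1 higher levels. Fibronectin (Fn1), made by macrophages and by fibroblasts, had 1263 and 12011 CPM at day 3, a ratio of 9.51 (9.11 to 9.93). Osteopontin (Spp1) had 7.01, 355 and 513 in the heart series and 1912, 4459 and 8369 in the adhesion series, and its day 3 ratio was 12.6 (11.6 to 13.6). Galectin 3 (Lgals3) was 13.1-fold higher (10.6 to 16.3), the endotoxin co-receptor Cd14 11.1-fold (8.67 to 14.5), the monocyte chemokine receptor Ccr2 5.23-fold (4.10 to 6.73) and the mannose receptor Mrc1 4.0-fold (3.53 to 4.54). Of 16 genes of lipid-associated macrophages 12 were over 3-fold higher and 1, the lipase Lpl of muscle and fat, lower (6.21-fold). With the scalings that lower the ratios, 9 of the 16 were over 3-fold higher. Gpnmb, a glycoprotein of lysosome-rich macrophages, had 65.2 and 623 CPM at day 3 and 521 and 4098 at day 7, so its level was higher in both tissues at the later day while the ratio was 9.55 and then 7.86.

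Macrophage genes of resident cells were mixed. Of 10 tested, 7 were over 3-fold higher and 0 lower, or 5 and 0 with the scalings that lower the ratios. The chemokine Ccl24 was 34.7-fold higher (16.6 to 87.4), the haemoglobin scavenger receptor Cd163 5.05-fold (3.74 to 6.94), and Lyve1, a hyaluronan receptor of perivascular macrophages and lymphatic vessels, had 59 and 45 reads, 1.17-fold lower with an interval of 0.781 to 1.76. Cd5l, which macrophages secrete, had 0, 0 and 6 reads in heart and 12, 115 and 20 in adhesion tissue, at least 43.0-fold higher at day 3 with the 0 heart reads set to a floor of 3. All 9 MHC class II genes tested were over 3-fold higher, with a median log2 ratio of 1.99. Cathepsin S (Ctss), which processes the invariant chain, was 8.48-fold higher (7.41 to 9.75) and the invariant chain Cd74 4.81-fold (4.24 to 5.46). With each of the scalings that lower the ratios, 6 of the 9 were past 3-fold. In the dendritic cell list 2 of 4 were over 3-fold higher, Clec10a and Itgax. Itgax was 10.6-fold higher (7.41 to 15.7), whereas Xcr1 and Clec9a, which mark conventional dendritic cells of type 1, had 11 and 9 reads and 10 and 11 reads.

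Of 14 neutrophil genes tested, 13 were over 3-fold higher and 0 lower, with a median log2 ratio of 2.77. S100a9, a calcium-binding alarmin of neutrophils and monocytes, had 26.5 and 199.9 CPM at day 3, a ratio of 7.54 (5.55 to 10.4), and reached 807 in the adhesion library of day 1. The lectin receptor Clec4e was 15.6-fold higher (10.4 to 24.4), Padi4, which citrullinates histones, 37.3-fold (12.4 to 184), and Lcn2 differed by 2.39-fold. Mpo, the granule enzyme of early neutrophils, had 0 and 1 reads. All 8 genes that the study used as neutrophil markers were over 3-fold higher, from Anpep at 3.77 (3.10 to 4.59) to the integrin beta chain Itgb2 at 11.3 (9.47 to 13.6). That list comes from the study's account of these samples, so it is not independent of them, and several of its genes, such as Ptprc and Itgam, mark other leukocytes as well.

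Chemokines differed strongly by family member. Of 10 tested Ccl chemokines, which draw monocytes, eosinophils and lymphocytes, 9 were over 3-fold higher and 0 lower, with a median log2 ratio of 2.81. Ccl6 had 113 and 1622 reads, a ratio of 16.1 (13.3 to 19.6), and Ccl9 12.6 (10.2 to 15.6). Ccl3 had 1 and 50 reads and a ratio of 56.0 (9.60 to 2256), while Ccl19 had 21 and 19 reads. Of 10 Cxcl chemokines only Cxcl2, Cxcl3, Cxcl13 and Pf4 were past 3-fold. The neutrophil attractant Cxcl2 was 20.6-fold higher (12.6 to 35.8) and Cxcl3 29.1-fold (9.61 to 144). Its relatives Cxcl1 and Cxcl5 had 27 and 37 reads and 97 and 118 reads, ratios of 1.54 and 1.36, and Cxcl12, a product of stromal cells, had a ratio of 1.01. Among 8 chemokine receptors 6 were over 3-fold higher, with Ccr1 at 6.54 (4.57 to 9.59). With the scalings that lower the ratios, 4 of the 8 were past 3-fold.

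Cytokine lists held ligands and receptors past 3-fold. Of 10 interleukin 1 family genes, 8 were over 3-fold higher and 0 lower. The receptor antagonist Il1rn had 20 and 391 reads, a ratio of 21.9 (14.0 to 36.3), and Il1b 62 and 306 reads, 5.53 (4.2 to 7.39). Levels of Il1rn and Il1b in adhesion tissue were 242 and 189 CPM. The sensor Nlrp3 was 5.68-fold higher (3.79 to 8.78) and the receptor Il1r1 2.47-fold. In the interleukin 6 family 3 of 8 were over 3-fold higher, beside 11.3% of all genes. They were the ligand Osm (11.4, 4.59 to 36.7), the receptor Il6ra (3.28) and the inhibitor Socs3 (4.06), and the shared receptor Il6st had a ratio of 1.18. With the scalings that lower the ratios, 2 of the 8 were past 3-fold. In the TNF family 4 of 8 were over 3-fold higher and 0 lower. Tnf had 3 and 40 reads, a ratio of 14.9 (4.76 to 75.5), its receptor Tnfrsf1b a ratio of 5.94 (4.91 to 7.24) and Tnfrsf1a 2.27. Toll-like receptor genes were over 3-fold higher in 12 of 16, with Tlr2 at 6.83 (4.68 to 10.3) and Tlr13 at 6.55 (4.65 to 9.45), while Tlr3 had 18 and 15 reads. Of 13 interferon-stimulated genes 4 were over 3-fold higher, beside 11.3% of all genes. They were Oasl2, Ifi27l2a, Bst2 and Ifitm3, all between 3.05 and 3.44, and with the scalings that lower the ratios 0 were.

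B cell genes had the highest median of any list, 4.52 on the log2 scale. Of 9 tested, 8 were over 3-fold higher and 0 lower, on few heart reads. Ms4a1, which encodes CD20, had 3, 1 and 0 reads in heart and 62, 76 and 13 in adhesion tissue, a day 3 ratio of 85.2 (14.8 to 3407). The joining chain of polymeric antibodies (Igj) had 9 and 302 reads at day 3, a ratio of 37.6 (19.5 to 83), Cd22 3 and 91 reads (34, 11.3 to 168) and Cd79b 2 and 48 (26.9, 7.05 to 228). Cxcl13, the chemokine that guides B cells, had 0, 3.87 and 1.65 CPM in the heart series and 119.5, 168 and 15.7 in the adhesion series, a day 3 ratio of 43.5 (20.8 to 109). The kinase Blk, with 23 and 19 reads, was the exception. T and NK cell genes were sparse: 2 of 16 reached 30 reads, and the list summed to 33.1 and 136 CPM.

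Some fat and mesothelial genes were high in adhesion tissue. Adiponectin (Adipoq), a hormone of fat cells, had 2, 3 and 1 reads in heart and 127, 152 and 31 in adhesion tissue, a day 3 ratio of 56.8 (19.1 to 278). The lipid droplet genes Plin1 and Cidec had ratios of 31.8 (13.3 to 99.5) and 31.6 (13.2 to 98.8), adipsin (Cfd) 24.5 (15.7 to 40.6) and Car3, a carbonic anhydrase of fat and skeletal muscle, 35.0 (25 to 50.5). Of 9 adipocyte genes tested 4 were over 3-fold higher and 1, Cidea, lower (12.9-fold, 3.27 to 112), while Pparg, the adipocyte regulator, had 26 and 24 reads and Fabp4 a ratio of 1.56 (1.37 to 1.77). Of 5 mesothelial genes tested, Wt1 was 8.18-fold higher (4.2 to 17.8) and Lrrn4 37-fold on 1 and 33 reads (6.19 to 1504), and 0 were over 3-fold lower. Ezr, Aldh1a2 and Tbx18, which other cells express too, were within 3-fold at 2.74, 0.864 and 0.538. Gpm6a, a mesothelial marker, had 2 and 10 reads. Whether fat or serosa was taken along with the adhesion tissue was not tested.

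Matrix genes were high in both tissues and differed less than leukocyte genes. Of 17 collagen genes, 4 were over 3-fold higher and 1, Col8a1 (4.91-fold), lower, beside 11.3% and 11.2% of all genes. Their median log2 ratio was 1.05. Col1a1, the main chain of type I collagen, had 283, 3662 and 4291 CPM in the heart series and 440.2, 11301 and 16593 in the adhesion series. At day 3 the ratio was 3.09 (3.0 to 3.17). Heart and adhesion series thus crossed: the adhesion library of day 1 was below the hearts of days 3 and 7. Col1a2 had a ratio of 3.18 (3.07 to 3.30), Col3a1 1.98 (1.93 to 2.03), Col5a3 3.94 (3.31 to 4.71) and Col12a1 4.03 (3.27 to 5.0). With any of the 4 scalings that lower the ratios, Col1a1 and Col1a2 were within 3-fold and 2 collagens were left above it. Col6a5, a rarer type VI chain outside that list, had 8 and 379 reads, a ratio of 53.1 (26.7 to 124), which placed it among the 12 genes with the highest lower bound.

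Of 16 collagen processing genes 4 were over 3-fold higher, beside 11.3% of all genes, and all 16 had ratios above 1. The 4 were the cross-linking oxidase Lox (3.68, 3.21 to 4.24), the hydroxylases P4ha1 (3.16) and Plod2 (3.10) and the propeptidase Adamts14 (4.71). With the scalings that lower the ratios 2 of the 16 were past 3-fold. Of 23 glycoprotein genes 8 were over 3-fold higher and 1, Fbln1 (3.62-fold, 2.91 to 4.55), lower. Besides Fn1 and Spp1 these were thrombospondin Thbs1 (5.49, 4.90 to 6.17), the hyaluronan receptor Cd44 (7.09, 6.10 to 8.28), the hyaluronan synthases Has1 and Has2 (4.86 and 8.12, on 6 and 26 and on 4 and 29 reads), Tnfaip6 (4.38) and Efemp1 (4.57). Thbs1 was highest in the adhesion library of day 1, with 4212, 1079.9 and 528 CPM over the 3 days.

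Proteases and coagulation factors held several of the largest ratios. Of 22 metalloproteinase, inhibitor and ADAM genes, 10 were over 3-fold higher and 1 lower, or 7 and 1 with the scalings that lower the ratios. The macrophage elastase Mmp12 had 70 and 926 reads, a ratio of 14.8 (11.6 to 19.2), Adam8 13.3 (10.3 to 17.5) and the collagenase Mmp13, with 2 and 45 reads, 25.2 (6.59 to 215). Mmp9 had a ratio of 6.14 (4.68 to 8.16), Mmp19 7.80 (6.10 to 10.1) and the inhibitor Timp1 4.10. The gelatinase Mmp2 had 133 and 126 CPM, and stromelysin Mmp3 was 4.53-fold lower (2.53 to 8.70). Of 15 plasminogen and coagulation genes 9 were over 3-fold higher and 0 lower. Serpinb2, an inhibitor of plasminogen activators (chr1:107511423-107525600, plus strand), had 1, 3 and 3 reads in heart and 184, 255 and 88 in adhesion tissue, and its day 3 ratio of 95.2 (32.2 to 465) was the largest among genes read in both libraries. Coagulation factor genes F10 and F7 had ratios of 28.6 (16.5 to 54.3) and 16.1 (9.71 to 28.7), and the urokinase receptor Plaur 8.03 (5.46 to 12.2). Tissue factor (F3) and the anticoagulants Tfpi and Thbd were within 3-fold, at 1.49, 0.412 and 0.699. Of 23 lysosomal genes 14 were over 3-fold higher and 0 lower, with a median log2 ratio of 1.98.

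Fibroblast genes lay on both sides, and contractile smooth muscle genes were lower or within 3-fold. Of 19 fibroblast genes 2, Col1a1 and Col1a2, were over 3-fold higher and 3, Pi16, Fbln1 and Meox1, lower. These shares were near the 11.3% and 11.2% of all genes, and the median log2 ratio was -0.34. With the scalings that lower the ratios the counts were 0 and 5. Of 15 contractile smooth muscle genes 0 were over 3-fold higher and 7 lower, and 2 of the 7, Des and Tpm1, are also heart muscle genes. The others were Synpo2 (6.85-fold, 4.78 to 10.1), Itga7 (5.96-fold, 4.62 to 7.80), Rgs5, Kcnj8 and Smtn. Acta2, the actin of smooth muscle and myofibroblasts, had 172, 127 and 103 CPM in the heart series and 97.2, 154 and 161 in the adhesion series, a day 3 ratio of 1.21 (1.01 to 1.46) with overlapping series. Tagln had a ratio of 1.51 (1.08 to 2.13), and Myh11 was 2.45-fold lower (1.82 to 3.36). Of 10 genes of synthetic smooth muscle 5 were over 3-fold higher, vimentin (Vim) at 3.15 (2.94 to 3.37), Tpm4 at 3.03 (2.65 to 3.46), Cd44, Col1a1 and Spp1, the first pair next to the threshold. Mmp3 was the 1 lower. With the scalings that lower the ratios 2 of the 10 were over 3-fold higher. Leukocytes and fibroblasts make these genes as well.

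Of 24 endothelial genes 0 were over 3-fold higher and 3 lower, beside 11.3% and 11.2% of all genes, so the lower share was near that of all. The median log2 ratio was -0.84, against 0.24 for all genes. The counting interval lay below 1 for 19 and above 1 for 1. The junction molecule Pecam1 had 173, 193 and 181 CPM in the heart series and 108, 140.5 and 141 in the adhesion series, and at day 3 was 1.37-fold lower (1.16 to 1.63). The VEGF receptor Kdr had 183, 259.6 and 167 in the heart series against 78.8, 70.5 and 86.7 in the adhesion series, so the series did not overlap, and was 3.68-fold lower at day 3 (2.99 to 4.56). Tek was 3.94-fold lower (2.70 to 5.89), Ly6c1 3.70-fold (2.43 to 5.80) and Cd34 1.18-fold (0.978 to 1.43). With the scalings that lower the ratios 6 of the 24 were over 3-fold lower. In the adhesion and leukocyte rolling list 7 of 14 were over 3-fold higher, and these were leukocyte integrins and ligands, with the selectin ligand Selplg at 10.2 (6.51 to 16.9).

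Of 19 vessel growth genes 2, Angptl4 (4.06, 2.90 to 5.78) and Apln (3.04, within 3-fold with the scalings that lower the ratios), were over 3-fold higher and 3 lower, near the 11.3% and 11.2% of all genes, with a median log2 ratio of -0.05, which turns above 0 when Rn45s is left out of the totals. Vegfa had 309 and 269 CPM, 1.15-fold lower (1.01 to 1.31). Vegfb, a ligand of the first VEGF receptor that is rich in heart muscle, had 224, 148 and 186 CPM in the heart series against 36.3, 9.28 and 36.3 in the adhesion series, and was 15.9-fold lower at day 3 (9.50 to 28.9). Vegfc and the VEGF-D gene Figf had 17 and 21 reads and 22 and 19 reads. Angpt1, which stabilises vessels through Tek, was 11.3-fold lower (4.96 to 31.8) and the Notch ligand Dll4 4.26-fold (2.32 to 8.44). Of 5 lymphatic genes 1 was over 3-fold higher and 2 lower. Prox1 had 221 and 1 reads, 197-fold lower (35.0 to 7825), and Reln was 10-fold lower (3.66 to 38.4), while Pdpn was 7.5-fold higher (5.41 to 10.6) and Flt4 2.22-fold lower (1.48 to 3.39). Prox1 is expressed in heart muscle too and Pdpn in other cell types.

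Of 22 TGF-beta and activin genes 3 were over 3-fold higher and 3 lower, shares near the 11.3% and 11.2% of all genes, with a median log2 ratio of 0.30. Tgfb1 had 24.5, 38.7 and 46.7 CPM in the heart series and 164, 194 and 151 in the adhesion series, series that did not overlap, and a day 3 ratio of 5.01 (3.86 to 6.59). The activin chains Inhba and Inhbb had ratios of 4.16 and 4.23 on 7 and 26 and on 9 and 34 reads. Lower were Ltbp4 (7.83-fold, 6.21 to 10) and Ltbp1 (6.83-fold, 4.53 to 10.7), which hold latent TGF-beta in the matrix, and the ligand Bmp6. The target Tgfbi had a ratio of 2.99 (2.60 to 3.45), at the threshold. Of 21 PI3K-Akt genes 5 were over 3-fold higher and 0 lower, beside the same shares of all genes, with a median of 0.28. All 5 are genes that leukocytes use: the catalytic subunits Pik3cd (4.63, 3.59 to 6.04) and Pik3cg (6.39, 4.31 to 9.76), the partner Pik3r5 (6.72, 4.95 to 9.29), the adaptor Pik3ap1 (5.87, 4.13 to 8.54) and the phosphatase Inpp5d (3.47).

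Most cell division genes had ratios above 1, many of them near the threshold. Of 30 mitosis genes 11 were over 3-fold higher and 0 lower, with a median log2 ratio of 1.52, and the interval lay above 1 for 28. The proliferation marker Mki67 had 1.75, 101 and 47.3 CPM in the heart series and 48.6, 358 and 169.7 in the adhesion series, a day 3 ratio of 3.56 (3.01 to 4.23). Topoisomerase Top2a had a ratio of 3.98 (3.08 to 5.18) and Rrm2 5.11 (2.95 to 9.41). Day 3 was the highest library of each tissue for both Mki67 and Top2a. The count past 3-fold was 17 with Rn45s left out and 3 with edgeR TMM, so it rests on the scale, whereas the median stayed between 1.26 and 1.64. Of 12 replication genes 7 were past 3-fold, or 2 with each of the scalings that lower the ratios, and Pcna had a ratio of 2.37 (1.81 to 3.12). Of 18 histone genes, whose RNA lacks a poly(A) tail and is kept by ribosomal depletion, 8 were past 3-fold, or 5 with edgeR TMM, and the interval lay above 1 for all 18.

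Of 57 ribosomal protein genes 0 passed 3-fold in either direction, and 55 had ratios above 1, or 53 to 56 with other scales, with a median log2 ratio of 0.61. Of 15 secretory genes 4 were over 3-fold higher and 0 lower, beside 11.3% and 11.2% of all genes. Sdf2l1 had 9 and 87 reads (10.8, 5.45 to 24.5), and Pdia4, Creld2 and Xbp1 had ratios of 4.77, 4.30 and 4.15. Of 15 immediate early genes 7 were over 3-fold higher and 0 lower, led by Egr2, with 10 and 174 reads (19.5, 10.4 to 41.4). Fos had a ratio of 4.42 (3.44 to 5.75), Junb 3.90 (3.16 to 4.85) and Atf3 6.04 (3.85 to 9.88).

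A last measure is the day 3 heart level of genes high in adhesion tissue. There were 37 genes over 3-fold higher in adhesion tissue with 100 or more adhesion reads and 1 read or fewer in the day 0 heart. This choice by the day 3 ratio caps the heart level, so the values are a description of the range below that cap. Their heart level at day 3 was 0% to 22.2% of the adhesion level, with a median of 9.76% and quartiles of 4.86% and 12.9%. The lowest were Cd5l, at 0% with an upper bound of 2.91%, Serpinb2 at 1.05% (0.215 to 3.10) and Cxcl13 at 2.30% (0.915 to 4.80). The highest were the calcium-binding S100a4 at 22.2% (15.8 to 30.6), the leukocyte adaptor Pstpip1 at 21.9% (13.8 to 33.6) and the collagen gene Col24a1 at 20.1% (12.7 to 30.7). The intervals of the lowest and highest genes did not overlap, but these genes were picked as the extremes of the 37, so no difference is read from this. Leukocytes within the heart and adhesion tissue left on it cannot be told apart here.

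**Figure D4:**
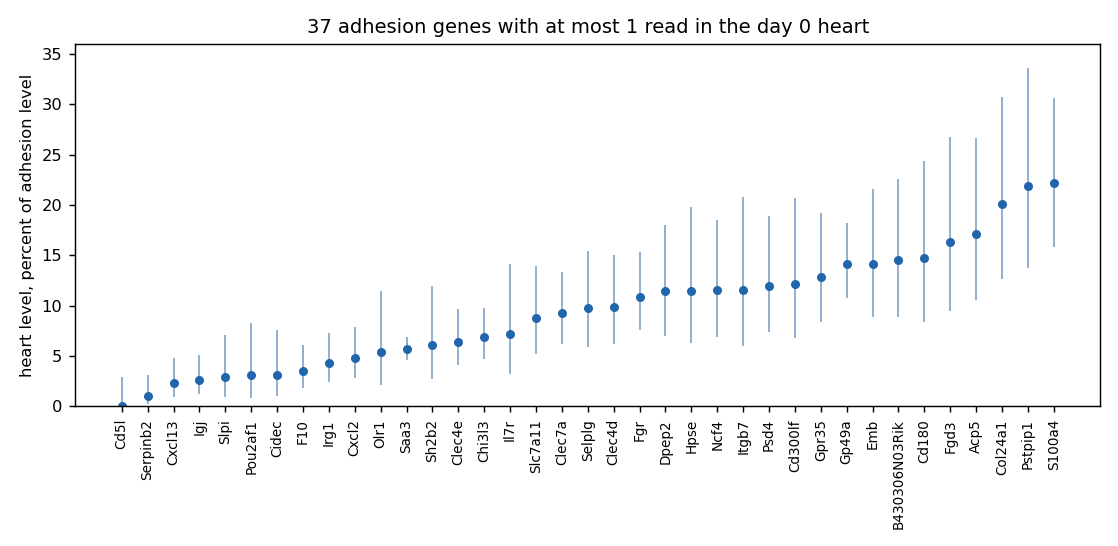
Heart level at day 3 in percent of the adhesion level (vertical axis) for the 37 genes high in adhesion tissue with at most 1 read in the day 0 heart, with 95% counting intervals. Values run from 0% for Cd5l to 22.2% for S100a4.

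The other days give the same genes beside another pair of libraries. Of the 1191 genes over 3-fold higher at day 3, 1076 had 30 reads at day 7, where 761 (70.7%) were again over 3-fold higher and 0 over 3-fold lower, beside 10.6% higher among all genes of day 7. Of the 1180 lower genes 808 of 1150 (70.3%) were again lower and 3 were over 3-fold higher, beside 8.92%. Between adhesion tissue of day 1 and heart of day 0, 872 of 1015 (85.9%) were again higher and 770 of 1160 (66.4%) again lower, while 0 and 8 were past 3-fold the other way, beside 17.8% and 9.53%. These pairs share no library with day 3. The sarcomere list was the lowest at day 3: its median log2 ratio was -3.0 at the first day, -7.91 at day 3 and -3.56 at day 7.

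**Figure D5:**
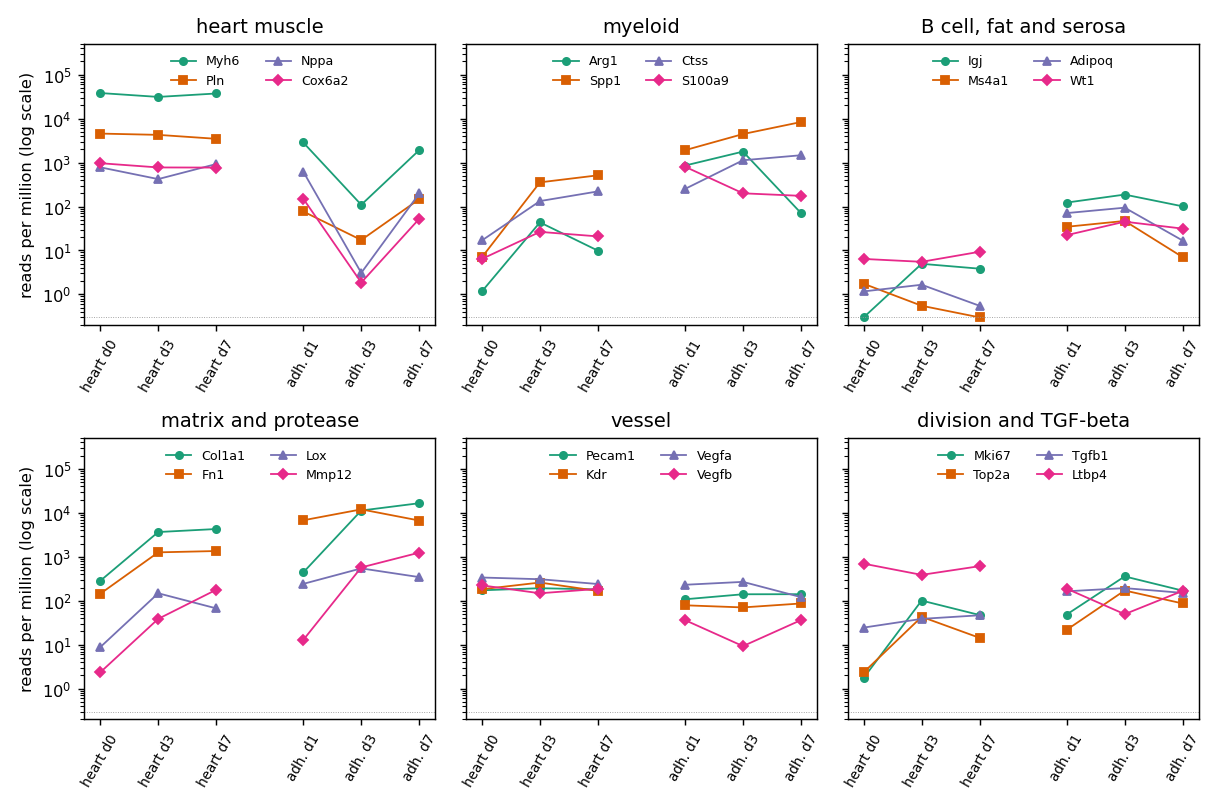
Levels of 24 genes in the 6 libraries, in CPM on a log axis, with the heart days at left and the adhesion days at right of each panel; values of 0 are drawn at 0.3. Each point is 1 library. Myh6 falls to 109.5 in the day 3 adhesion library and Col1a1 runs from 440.2 to 16593 over the adhesion days.

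The rule of 30 reads split genes of similar kind. At 30 reads, just inside, stood Abra (29 and 1), Acot8 (14 and 16) and Ankrd37 (7 and 23), with ratios of 0.0386, 1.28 and 3.68, and at 29, just outside, Aldh1a3 (10 and 19), Amigo3 (14 and 15) and Armc6 (12 and 17), with 2.13, 1.20 and 1.59. Some genes could not be read fairly. The haemoglobin genes Hba-a1, Hba-a2, Hbb-b1 and Hbb-b2 were listed at 0 in all 6 libraries, and Eno1, a glycolytic enzyme, had 2 and 38 reads; these genes share sequence or exon bases with other genes, so their values are uncertain. Of the 359 genes of the naming rule, 18 overlapped exons of an antisense gene and 12 those of a sense gene. Of the genes described above these include Mb, Cox6a2, Cd74, Mmp19, Plod2, Pdia4, Itga7, Dll4, Tagln and Cd34. The kit kept strand, but the strand setting of the counting is not stated in the sources used here.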

How the data were processed

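Total RNA from whole heart and adhesion tissue was depleted of ribosomal RNA and sequenced with a directional kit. TopHat, Cufflinks, edgeR and the mm10 build are named in the submitters' processing notes; their versions, the counting tool, the annotation and the strand setting are not stated in the sources used here. The authors deposited 1 table for each tissue, with exon length and a scaled signal for each gene, scaled within each table. A score, a rank and a q-value column computed by the authors over the libraries of each tissue were not used. The signal values of each library were whole read counts times 1 factor, so reads were recovered (all within 0.1 of a whole number) and the tables joined by gene and start. Levels are CPM, the reads per 1000000 reads in genes, computed here from the deposited signal.

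Genes with 30 or more reads over both day 3 libraries were compared, 0 reads being set to 3 for a ratio given as "at least". A gene was called past 3-fold. Intervals are exact 95% conditional binomial intervals. Each condition had 1 library, so nothing was tested. The naming rule took the 12 genes each way with the interval bound farthest from 1. It also took up to 4 members of each of 57 lists by the same bound and all members of lists of up to 12 genes. Both genes of 34 pairs, the genes the study names as markers, and those at the edges of each rule were added. Not all of these genes are described above. Other list members named beside a count were chosen after their values were seen. The gene lists, pairs and rules were chosen with earlier results of these data known. Of the list entries 14 had no row. Among the deposited gene names, 27 had been turned into dates and 2 stood in 2 rows each. Other totals, scalings by edgeR 4.0.16 and DESeq2 1.42.0, read minimums, pseudocounts and folds were tried. The ratio code was tested on simulated data. Python 3.11.15, numpy 2.4.6, pandas 2.3.3, scipy 1.17.1, matplotlib 3.10.9 and R 4.3.3 were used. Promoter sequences are from RefSeq, GRCm38.p6.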

Additional observations from a re-analysis of the deposited data

Results flagged for a closer look

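3 skeletal muscle genes lay on opposite sides of 3-fold at days 3 and 7, and the difference between the days was not tested. Cacna1s, the calcium channel of skeletal muscle, had 32 and 4 reads in heart and adhesion tissue at day 3, a ratio of 0.140 (interval 0.0360 to 0.395), and 19 and 72 reads at day 7, a ratio of 3.74 (2.23 to 6.56). Mybpc2, a myosin binding protein of fast muscle, had a ratio of 0.0284 (0.00338 to 0.106) on 79 and 2 reads at day 3 and of 7.02 (4.60 to 11.1) on 25 and 178 reads at day 7. Myl1, a light chain of fast muscle, had a ratio of 0.0659 on 34 and 2 reads at day 3 and of 3.68 on 45 and 168 reads at day 7. The skeletal muscle list summed to 1287, 803 and 1053 CPM in heart at days 0, 3 and 7 and to 8446, 16.7 and 2823 in adhesion tissue at days 1, 3 and 7. Of the 1453 reads of the list in the day 3 heart, Ckm gave 1127 and Acta1 302. Ckm is also among the muscle forms of the 34 pairs, so the heart sum is no measure of skeletal muscle alone. The part of skeletal muscle RNA in these ratios was not tested.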

How the results depend on the processing

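The counts of genes past 3-fold (1191 higher and 1180 lower) were 707 and 756 with a minimum of 100 reads, 2361 and 1856 at 2-fold, 513 and 741 at 5-fold, and 591 and 768 where the whole interval had to pass 3-fold. With no minimum and a pseudocount of 1 read the higher count was 2168. The first and the last of these follow from the number of genes compared, and the others from the threshold itself. With the other 9 alternatives, totals and scalings included, counts stayed within 1.5 times. The 5 other totals or scalings shifted every log2 ratio by -0.26 to 0.12. Of 287 compared genes of the naming rule 226 were past 3-fold, and of these 0 to 22 were lost with other totals or scalings, 2 with a pseudocount of 1 read and 11 with 5 reads. No ratio of these genes turned to the other side while past 3-fold, whereas lower calls outnumbered higher ones with 4 of the 5 other totals or scalings, with a minimum of 100 reads, at 5-fold, with a pseudocount of 5 reads and where the whole interval had to pass. A level of 3 reads is 1.66 CPM in heart and 1.86 in adhesion tissue, so ratios of genes under about that level are not detectable at this depth, and intervals do not cover differences between animals. No paired analysis was possible because each tissue had 1 library at day 3.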

Other observations

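Mast cell, platelet, erythroid, nerve and liver lists had few genes with 30 reads. Over 3-fold higher were 1 of 2 mast cell and eosinophil, 1 of 2 platelet, 0 of 2 erythroid, 1 of 3 nerve and 1 of 1 liver genes, and 0 were over 3-fold lower. Of 4 ribosomal and small RNA loci, Rn45s among them, 0 passed 3-fold, and Rn45s had a ratio of 2.83 (2.81 to 2.86). Both genes of the skeletal muscle list with 30 reads were over 3-fold lower. Ckm, also a muscle form in the pairs above, had 1127 and 1 reads, 1006-fold lower (180.2 to 39764). Acta1 had 302 and 3 reads, 89.8-fold lower (30.5 to 438). Hdc, which makes histamine, was 13.6-fold higher in adhesion tissue at day 3, and the mast cell receptor Kit 2.69-fold higher. The myelin gene Mbp was 15.5-fold higher, and transferrin (Trf), which liver and other tissues make, 7.55-fold higher. Lrp2, an endocytic receptor of epithelia, had 1 and 60 reads, a ratio of 67.2 (11.6 to 2699). Adrb3, the beta-3 adrenergic receptor of fat, had 1 and 42 reads, and Ltc4s, which makes leukotriene C4, had 3 and 102 reads. These last 3 genes were chosen after their values were seen.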
